A study of Homo sapiens with 2 samples.

Results

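MDM2, MDM4 and 7 target genes of the transcription factor p53 were followed in HEK293T cells that overexpressed the homeobox protein IRX1. The genes were BAX, BBC3, TP53I3, FAS, RRM2B, SESN1 and ZMAT3 beside MDM2 and MDM4. All probe sets whose platform annotation gives 1 of these 9 symbols and no other were taken, which gave 31 of 54675 probe sets, for 8 of the 9 genes. BBC3, which encodes the death inducer PUMA, had no probe set with a single symbol and has no value. The probe set that names it also names 2 microRNA genes.

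HEK293T is a line of human embryonic kidney cells with adenovirus early genes and the large T antigen of simian virus, a protein known to bind p53. Cells were transfected with polyethylenimine and either pcDNA3.1-IRX1::GFP (IRX1::GFP) or pcDNA3.1-GFP (GFP control). GFP-positive cells were sorted 48 h later, and their RNA was hybridised to HG-U133 Plus 2.0 arrays. For each condition 1 column of array signals, called an array here, was analysed. Whether it is a single array or a pool of replicates was not settled, so no spread between cultures is known and no p-value is given, and a higher or lower signal describes this pair of arrays. The values are MAS5 signals (intensity, not on a log scale), which the authors scaled within each array. That there is 1 column for each condition limits the precision. In RNA of a cell population, fewer cells with a transcript and less of it per cell cannot be told apart.

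p53 is activated by DNA damage and other stress and switches on genes that halt the cell cycle, repair DNA or kill the cell. MDM2 is both a target and a brake of p53. It is a ubiquitin ligase that marks p53 for degradation, and its own gene is induced by p53, which closes a feedback loop. MDM4, a relative of MDM2, binds p53 and blocks its activity. In cells with large T antigen, p53 is bound by the viral protein and its control by MDM2 is known to be disturbed.

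The stretches before the gene starts are shown as a description of the genes. Windows of 250 bases upstream of the RefSeq gene start (GRCh38.p14) were found for 8 of the 9 genes. Sites of the p53 decamer motif, of ACANNTGT, which Iroquois proteins of the fly bind, and of the E-box CACGTG were searched. Each motif is its own reverse complement, so 1 pass covers both strands. MDM2 lies at chr12:68807922-68808171 on the plus strand, ZMAT3 at chr3:179071810-179072059 on the minus strand, BAX at chr19:48954625-48954874 on the plus strand and FAS at chr10:88990548-88990797 on the plus strand. Capitals mark CACGTG in BAX and ACANNTGT in FAS, and the MDM2 and ZMAT3 windows hold none of these motifs. No window of these genes held sites of more than 1 motif.
MDM2: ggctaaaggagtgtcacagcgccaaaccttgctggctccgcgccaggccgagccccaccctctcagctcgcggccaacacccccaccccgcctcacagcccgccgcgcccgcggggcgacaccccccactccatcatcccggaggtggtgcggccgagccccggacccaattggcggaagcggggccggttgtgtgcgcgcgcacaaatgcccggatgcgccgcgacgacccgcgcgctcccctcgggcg
ZMAT3: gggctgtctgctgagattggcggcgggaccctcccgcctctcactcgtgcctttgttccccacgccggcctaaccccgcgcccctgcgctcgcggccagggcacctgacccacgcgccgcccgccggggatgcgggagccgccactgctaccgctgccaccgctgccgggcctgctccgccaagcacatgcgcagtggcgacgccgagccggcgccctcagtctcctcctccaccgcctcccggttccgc
BAX: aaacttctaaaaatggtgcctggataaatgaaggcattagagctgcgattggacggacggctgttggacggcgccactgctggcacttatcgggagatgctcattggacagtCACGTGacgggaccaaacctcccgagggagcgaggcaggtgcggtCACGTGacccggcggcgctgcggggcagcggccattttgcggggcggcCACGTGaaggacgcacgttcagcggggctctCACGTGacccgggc
FAS: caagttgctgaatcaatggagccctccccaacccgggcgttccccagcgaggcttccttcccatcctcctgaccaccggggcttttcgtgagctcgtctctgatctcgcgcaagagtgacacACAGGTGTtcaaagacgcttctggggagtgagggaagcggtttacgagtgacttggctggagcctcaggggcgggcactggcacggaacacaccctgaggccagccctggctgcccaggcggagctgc

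No member window held the p53 decamer, which is found in 5.53% of 27305 windows of this length. The p53 sites known for MDM2 lie in its first intron, outside this window. The BAX window held 4 CACGTG sites. At least 1 such site is found in 6.49% of all windows and 4 or more in 5 of 27305. BBC3 had 1 CACGTG site. The FAS window held the only ACANNTGT site of the members, a motif found in 4.74% of all windows. The windows of MDM2, SESN1 and ZMAT3, the 3 genes that were lower with IRX1::GFP, held 74.4%, 74.4% and 75.2% G and C. Those of BAX and TP53I3, the 2 higher genes, held 62.8% and 51.2%, and those of MDM4, FAS and BBC3 held 52.8%, 62.8% and 49.2%. The median over all windows was 58.0%, with quartiles of 46.0% and 67.6%. These are descriptions of sequence and show no binding. Whether motifs or G and C content go with the direction of a gene was not tested.

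Some facts hold for both arrays. The median signal was 195 with IRX1::GFP and 171 in the GFP control. Probe sets of olfactory receptors, 135 in number, gave the background as their 90th percentile, 195 with IRX1::GFP and 148 in the GFP control. Where 1 signal lay under background, the fold is a lower bound, taken against the background of that array. The only IRX1 probe set read 57.0 with IRX1::GFP and 33.1 in the GFP control, both under background, so it does not check the labels. Of 7 markers of HEK293T cells, 6 were above background on both arrays, and PAX2 with IRX1::GFP alone. Of the markers of other cell types, 3 were under background on both arrays. CD79A was above background with IRX1::GFP alone, and CD3E and ALB in the GFP control alone. COL1A1, at 2571 with IRX1::GFP and 631 in the GFP control, was the 1 above background on both. The summed signal of these other markers, COL1A1 included, was 3326 with IRX1::GFP and 1377 in the GFP control. Nearly all of that difference came from COL1A1. The part of these markers in the results was not tested. The 6 control probe sets of ACTB and GAPDH had log2 ratios between 0.21 and 1.24. The 3-prime over 5-prime signal ratio was 1.64 with IRX1::GFP and 3.23 in the GFP control for ACTB, and 1.01 with IRX1::GFP and 1.22 in the GFP control for GAPDH. The part of RNA quality in the results was not tested.

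The p53 genes did not move one way. MDM2, SESN1 and ZMAT3 were at least 2-fold lower with IRX1::GFP, BAX and TP53I3 were at least 2-fold higher, and MDM4, FAS and RRM2B were within 2-fold. Here each gene is read on its brightest probe set by the mean of both signals, and a filter kept genes whose mean reached 183, the 50th percentile. All 8 genes passed it. For comparison, 5.34% of all 12193 genes past it were lower and 10.4% higher, each at least 2-fold. The members were chosen with earlier results of these data known, so this comparison describes them and tests nothing. The log2 ratio sets the IRX1::GFP signal over that of the GFP control, and its median was -0.52 over the 8 genes and 0.07 over all genes. Of the 31 probe sets, 28 passed the filter, of which 13 were at least 2-fold lower and 3 at least 2-fold higher. Among all 22639 probe sets with 1 symbol past the filter, 6.02% were lower and 9.15% higher. Probe sets of 1 gene share a transcript and are not replicates, and 11 of the 13 lower ones belong to MDM2 and ZMAT3.

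**Figure D1:**
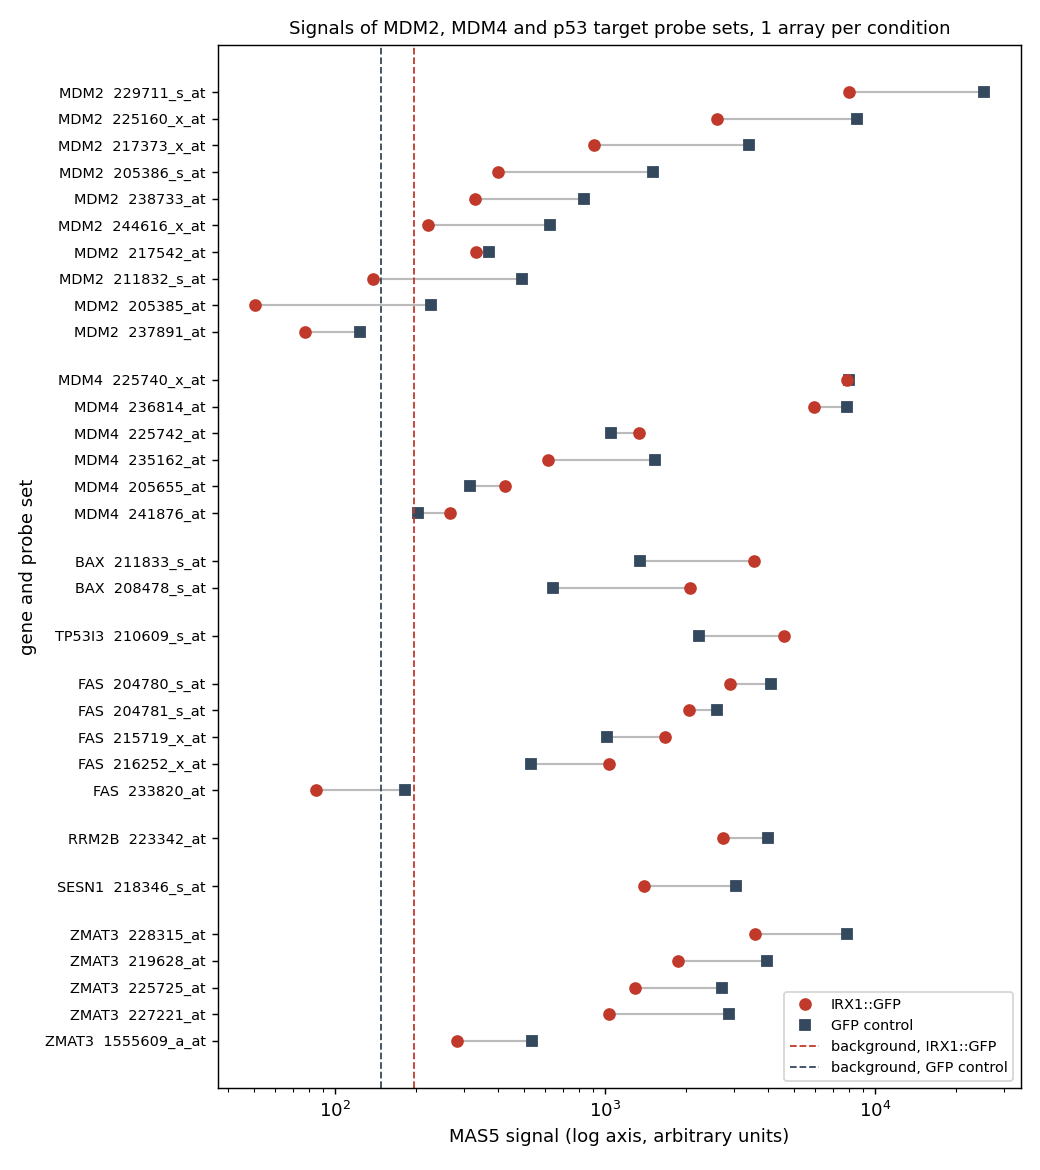
MAS5 signals on a log axis (x) of the 31 probe sets (y, grouped by gene and ordered by mean signal), with a red circle for IRX1::GFP and a dark square for the GFP control, 1 array each, and dashed lines at the background of each array (195 and 148). The circle lies left of the square in all 10 MDM2 and all 5 ZMAT3 probe sets and right of it in both BAX probe sets.

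MDM2 was lower with IRX1::GFP. Its brightest probe set, 229711_s_at, read 8019 with IRX1::GFP and 25304 in the GFP control, 3.16-fold lower. The next, 225160_x_at, read 2596 with IRX1::GFP and 8570 in the GFP control, 3.30-fold lower. Both were far above background on both arrays. Probe set 217373_x_at, at 912 with IRX1::GFP and 3414 in the GFP control, was 3.74-fold lower. Probe set 205386_s_at, at 401 with IRX1::GFP and 1501 in the GFP control, was 3.75-fold lower. The dimmer pair thus had the larger folds. Probe set 238733_at was 2.53-fold lower, at 329 with IRX1::GFP and 832 in the GFP control. Probe set 244616_x_at was 2.82-fold lower, at 221 with IRX1::GFP and 622 in the GFP control. These 6 probe sets had both signals above background. The seventh with both signals above background, 217542_at, stood apart at 331 with IRX1::GFP and 370 in the GFP control, a log2 ratio of -0.16. Probe set 211832_s_at read 138 with IRX1::GFP, under background, and 490 in the GFP control, at least 2.51-fold lower. Probe set 205385_at read 50.4 with IRX1::GFP, under background, and 226 in the GFP control, at least 1.16-fold lower. Probe set 237891_at, at 77.5 with IRX1::GFP and 124 in the GFP control, was under background on both arrays.

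The log2 ratios of the 7 MDM2 probe sets above background on both arrays ran between -1.91 and -0.16, with a median of -1.66, and all were below 0. At least 2-fold lower were 7 of the 8 that passed the filter. The SD between these 8, of which 1 was under background with IRX1::GFP, was 0.58, while within a gene, over 5930 genes with several probe sets past the filter, the log2 ratios had an SD of 0.49. Differences between isoforms are part of this SD, and differences between cultures are not in it. The log2 ratio of the brightest MDM2 probe set, -1.66, was larger than this SD in size. Only 1.10% of the 12193 genes had a lower log2 ratio. The suffix x marks probe sets that may also bind other transcripts. With only the probe sets that have no suffix for shared probes, the brightest of MDM2, 238733_at, had a log2 ratio of -1.34. The other such probe set past the filter, 217542_at, had -0.16, so these did not agree in size. Among genes whose probe sets past the filter were all lower, the 5 nearest to MDM2 by log2 ratio over the 2 arrays were KAT6B, ARID3B, ERC2, LRCH2 and FIBIN. The log2 ratios of KAT6B (-1.66), ARID3B (-1.66) and LRCH2 (-1.67) were measured on both arrays. ERC2 and FIBIN were under background with IRX1::GFP, so that only bounds of at least 2.40-fold and 2.21-fold lower can be given for them.

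MDM4 was within 2-fold on 5 of its 6 probe sets. The brightest, 225740_x_at, read 7854 with IRX1::GFP and 8031 in the GFP control, a log2 ratio of -0.03. The second, 236814_at, read 5919 with IRX1::GFP and 7862 in the GFP control. Probe set 235162_at was 2.49-fold lower, at 615 with IRX1::GFP and 1530 in the GFP control. It was the only MDM4 probe set past 2-fold. The remaining probe sets had positive log2 ratios. Probe set 225742_at read 1334 with IRX1::GFP and 1056 in the GFP control. Probe set 205655_at read 424 with IRX1::GFP and 316 in the GFP control, and 241876_at read 266 with IRX1::GFP and 202 in the GFP control. With 3 log2 ratios above 0 and 3 below, between -1.32 and 0.43, the MDM4 probe sets did not share a direction. The log2 ratio of the brightest one was 0.01 after quantile normalization.

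**Figure D2:**
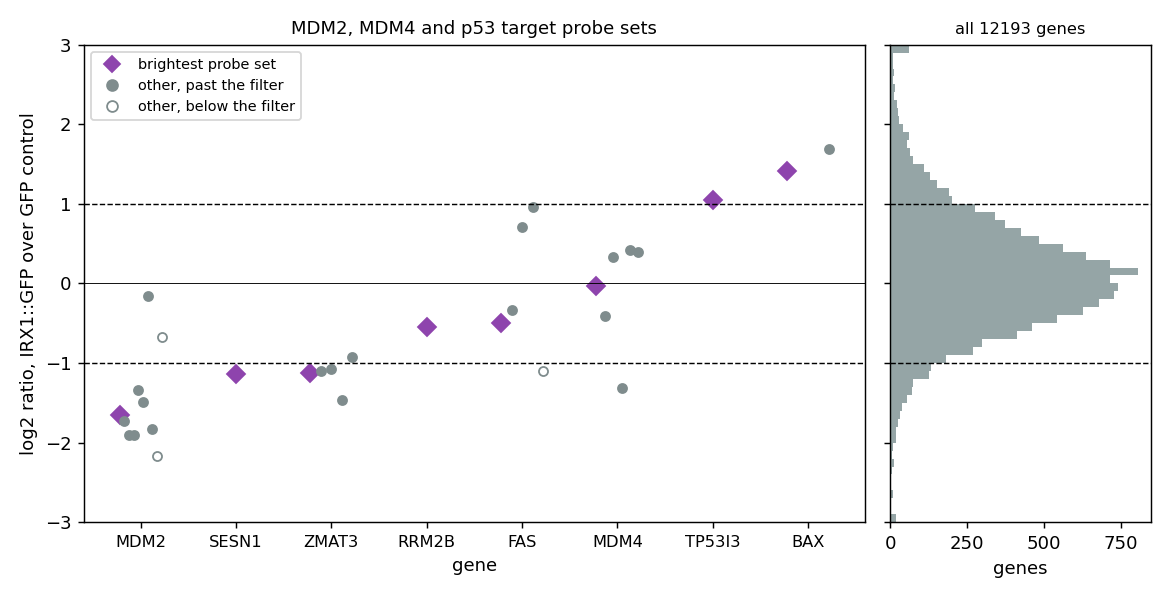
Log2 ratio (IRX1::GFP over GFP control, y axis) for each probe set of 8 genes (x), with purple diamonds for the brightest probe set, grey circles for the others and open circles for those below the filter, 1 array per condition. Dashed lines mark 2-fold, and the histogram on the right shows the log2 ratios of all 12193 genes, with values past 3 in the end bins. The brightest probe sets of MDM2, SESN1 and ZMAT3 lie under the lower line and those of BAX and TP53I3 above the upper one.

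Among the targets that act in cell death, BAX was higher and FAS was split. BAX encodes a BCL2 family protein that opens the outer membrane of mitochondria. Probe set 211833_s_at read 3570 with IRX1::GFP and 1341 in the GFP control, 2.66-fold higher. Probe set 208478_s_at read 2069 with IRX1::GFP and 641 in the GFP control, 3.23-fold higher. Both BAX probe sets thus agreed in direction, at log2 ratios of 1.41 and 1.69. Of all genes past the filter, 4.73% had a higher log2 ratio than BAX.

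TP53I3 encodes a quinone oxidoreductase that p53 induces in cells on the way to death. Its only probe set read 4613 with IRX1::GFP and 2228 in the GFP control, 2.07-fold higher. The log2 ratio, 1.05, passed 2-fold by less than 0.49, the SD given above, and after median centring the log2 ratio of 0.94 was within 2-fold.

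FAS encodes a death receptor of the cell surface. The brightest probe set, 204780_s_at, read 2902 with IRX1::GFP and 4103 in the GFP control, 1.41-fold lower, and 204781_s_at read 2052 with IRX1::GFP and 2595 in the GFP control, 1.26-fold lower. The other pair, whose suffix x marks probe sets that may also bind other transcripts, went the opposite way. Probe set 215719_x_at read 1667 with IRX1::GFP and 1019 in the GFP control, 1.64-fold higher, and 216252_x_at read 1035 with IRX1::GFP and 533 in the GFP control, 1.94-fold higher. All of these stayed within 2-fold. The fifth, 233820_at, read 84.7 with IRX1::GFP and 182 in the GFP control and did not pass the filter. No fold is given for it, since the GFP control signal lies under the background of the IRX1::GFP array. The mean log2 ratio over the 4 FAS probe sets past the filter was 0.21, against -0.50 for the brightest, so that FAS had no settled direction.

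Of the targets that act in DNA synthesis, stress and growth control, ZMAT3 and SESN1 were lower and RRM2B was within 2-fold. ZMAT3 encodes a zinc finger protein that binds RNA. Its brightest probe set, 228315_at, read 3600 with IRX1::GFP and 7847 in the GFP control, 2.18-fold lower. Probe set 219628_at read 1855 with IRX1::GFP and 3964 in the GFP control, 2.14-fold lower. Probe set 225725_at read 1289 with IRX1::GFP and 2715 in the GFP control, 2.11-fold lower. These folds lay within a narrow range. The largest difference was that of 227221_at, at 1035 with IRX1::GFP and 2868 in the GFP control, 2.77-fold lower. Probe set 1555609_a_at read 284 with IRX1::GFP and 538 in the GFP control, 1.89-fold lower and within 2-fold. The ZMAT3 probe sets lay close together, with an SD of 0.20 on the log2 scale, against 0.58 for the MDM2 probe sets past the filter.

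SESN1 encodes a sestrin, a stress protein that holds back the growth kinase complex of mTOR. Its only probe set read 1389 with IRX1::GFP and 3064 in the GFP control, 2.21-fold lower. RRM2B encodes the subunit of ribonucleotide reductase that p53 induces to supply nucleotides for DNA repair. Its only probe set read 2741 with IRX1::GFP and 3993 in the GFP control, 1.46-fold lower and within 2-fold. The log2 ratios of SESN1, -1.14, and of ZMAT3, -1.12, likewise passed 2-fold by less than that SD, as did that of BAX, 1.41. On the brightest probe sets, only MDM2 passed 2-fold by more. As the mean over probe sets the log2 ratio was 1.55 for BAX and -1.49 for MDM2, so this difference between them is not settled.

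The order of the log2 ratios from low to high was MDM2, SESN1, ZMAT3, RRM2B, FAS, MDM4, TP53I3 and BAX. MDM2 and SESN1 lay 0.52 apart. SESN1 and ZMAT3 lay 0.02 apart, ZMAT3 and RRM2B 0.58, RRM2B and FAS 0.04, and FAS and MDM4 0.47. The step of 1.08 between MDM4 and TP53I3 was the largest between neighbours. TP53I3 and BAX lay 0.36 apart. A difference between 2 log2 ratios with the SD of 0.49 given above has an SD of 0.69. The step between MDM4 and TP53I3 was the only one larger than this SD. Differences between cultures are not part of this SD. The steps lie between values sorted by size, so setting them beside it is no test. FAS was placed by its brightest probe set, at -0.50, while the mean of its probe sets past the filter was 0.21, so its place is not settled.

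**Figure D3:**
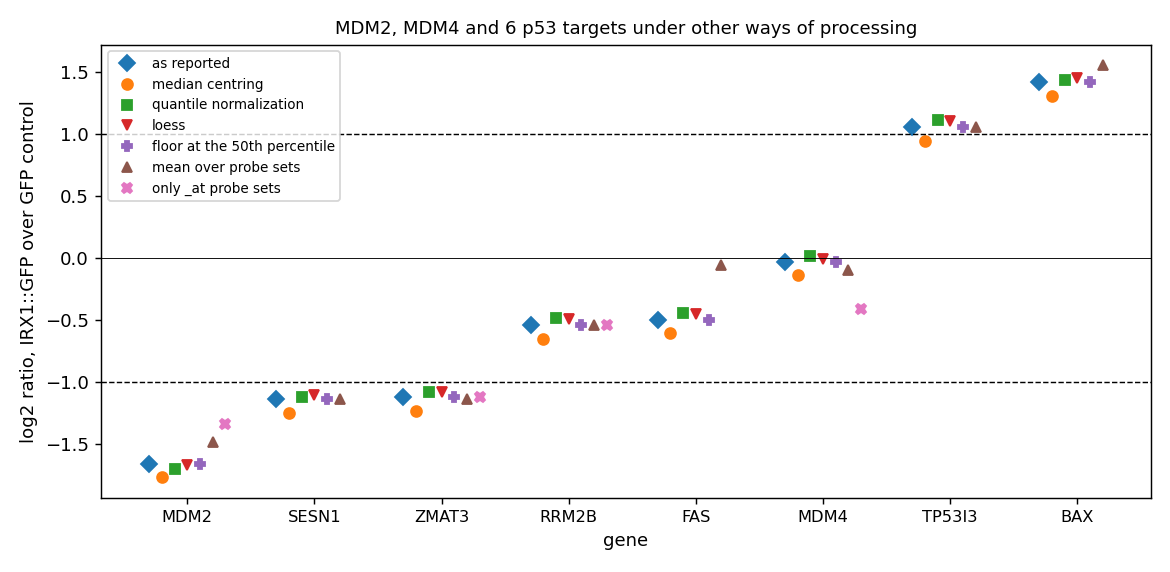
Log2 ratio (IRX1::GFP over GFP control, y axis) of 8 genes (x) as reported and under 6 other ways of processing, each condition with 1 array and dashed lines at 2-fold. MDM2, SESN1 and ZMAT3 lie under the lower line and BAX above the upper one wherever a value could be had (the mean over probe sets includes those below the filter), while TP53I3 falls to 0.94 with median centring.

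The rest of the pathway was read from 8 lists that were chosen with earlier results of these data known. Of 21 regulators of p53 past the filter, none was at least 2-fold higher or lower, beside 10.4% higher and 5.34% lower among all genes. The phosphatase PPM1D, itself induced by p53, read 17562 with IRX1::GFP and 31802 in the GFP control, a log2 ratio of -0.86. Its second probe set past the filter had -0.30. DAXX, a partner of p53 and MDM2, read 3292 with IRX1::GFP and 1693 in the GFP control, a log2 ratio of 0.96. The second DAXX probe set had 0.27. The deubiquitinase USP7, which acts on MDM2 and p53, read 4273 with IRX1::GFP and 5113 in the GFP control. The checkpoint kinase ATM read 1326 with IRX1::GFP and 1202 in the GFP control. The probe sets past the filter had log2 ratios between -0.26 and 0.31 for USP7 and between -0.19 and 0.37 for ATM. The median log2 ratio of the regulators was -0.26, beside 0.07 over all genes. TP73, the member of the p53 family analysed here, did not pass the filter.

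Over all lists of further p53 targets, 83 genes passed the filter. At least 2-fold, 11 were higher and 7 lower, which is 13.3% and 8.43%, beside 10.4% and 5.34% of all genes. Their median log2 ratio was 0.02. CDKN1A, which encodes the cell cycle inhibitor p21, read 9279 with IRX1::GFP and 9178 in the GFP control, a log2 ratio of 0.02. Of 15 targets of cell death, 2 were higher and 1 lower. PMAIP1, which encodes the BCL2 family death inducer NOXA, was 2.36-fold lower, at 13584 with IRX1::GFP and 32054 in the GFP control, and both of its probe sets were past 2-fold. SIVA1, which encodes an adaptor of death receptors, was 2.12-fold higher, at 9308 with IRX1::GFP and 4386 in the GFP control, and was past 2-fold on 1 of its 3 probe sets. TP53AIP1 read 348 with IRX1::GFP and 130 in the GFP control, where it was under background, and was at least 2.36-fold higher. The death receptor TNFRSF10B read 10898 with IRX1::GFP and 10894 in the GFP control.

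Of 13 targets of cell cycle and growth arrest, 3 were higher and none lower. That is 23.1% higher, beside 10.4% higher and 5.34% lower among all genes, and 13 genes are few. The kinase PLK3 was 2.89-fold higher, at 1695 with IRX1::GFP and 586 in the GFP control, and was past 2-fold on 1 of its 2 probe sets. SERTAD1, which encodes a cell cycle regulator, was 2.63-fold higher, at 20827 with IRX1::GFP and 7918 in the GFP control. SFN, which encodes the protein 14-3-3 sigma, was 2.11-fold higher, at 2057 with IRX1::GFP and 976 in the GFP control. The median of this list was 0.02.

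On their brightest probe sets, all 9 targets of DNA repair and nucleotide supply past the filter had log2 ratios below 0, beside 45.9% of all genes. Their median was -0.39, and 3 were at least 2-fold lower, which is 33.3%, beside 5.34% of all genes. As the mean over probe sets, 1 was at least 2-fold lower, and 9 genes are few. The 6 probe sets of POLH past the filter had log2 ratios between -0.84 and 0.22. DDB2, which recognises damage by ultraviolet light, was 3.78-fold lower, at 2176 with IRX1::GFP and 8222 in the GFP control. REV3L, the catalytic subunit of a translesion polymerase, was 2.90-fold lower, at 2376 with IRX1::GFP and 6888 in the GFP control. A second REV3L probe set was higher, at a log2 ratio of 0.81. POLK, another translesion polymerase, was 2.17-fold lower, at 1001 with IRX1::GFP and 2171 in the GFP control, and was past 2-fold on 1 of its 2 probe sets. The log2 ratio of XPC was -0.09 and that of PCNA -0.15.

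Of 16 targets of metabolism and autophagy, 2 were higher and none lower, a share of 12.5% higher that is near the 10.4% of all genes. In 11 of these 16 the log2 ratio was above 0, beside 54.1% of all genes. The median was 0.57, and it ranged from 0.25 to 0.69 over the ways of processing. The autophagy kinase ULK1 was 2.40-fold higher, at 858 with IRX1::GFP and 358 in the GFP control, and the ceramidase ACER2 2.24-fold, at 2424 with IRX1::GFP and 1084 in the GFP control. SESN2, a relative of SESN1, read 6186 with IRX1::GFP and 8601 in the GFP control, a log2 ratio of -0.48.

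Of 30 other targets, 4 were higher and 3 lower, which is 13.3% and 10%, near the 10.4% and 5.34% of all genes. The lower ones were FBXW7, KITLG and TP53TG1. FBXW7, which picks proteins for degradation, was 4.64-fold lower, at 1760 with IRX1::GFP and 8169 in the GFP control. Of its 4 probe sets past the filter 3 were lower and 1 was higher, at a log2 ratio of 1.11. The long noncoding RNA TP53TG1 was 3.29-fold lower, at 475 with IRX1::GFP and 1561 in the GFP control, and was past 2-fold on 1 of its 3 probe sets. KITLG, the ligand of KIT, was 2.78-fold lower, at 620 with IRX1::GFP and 1724 in the GFP control. Among the higher ones, the receptor kinase EPHA2 was 3.48-fold higher, at 2842 with IRX1::GFP and 818 in the GFP control. The chloride cotransporter gene SLC12A4 was 2.72-fold higher, at 792 with IRX1::GFP and 291 in the GFP control, while its second probe set had a log2 ratio of 0.11. PHLDA3, an inhibitor of AKT, was 2.28-fold higher, at 4090 with IRX1::GFP and 1793 in the GFP control, while its second probe set had a log2 ratio of -0.16.

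Of 17 genes that p53 represses through p21 and the DREAM complex, 1 was higher and none lower, with a median of 0.20. The share higher was 5.88%, beside 10.4% higher and 5.34% lower among all genes. The centromere histone gene CENPA was 2.31-fold higher, at 2141 with IRX1::GFP and 926 in the GFP control. The mitotic cyclin gene CCNB1 read 9923 with IRX1::GFP and 10475 in the GFP control. The median log2 ratio of all genes was -0.03 after median centring, against 0.07 without it, and 1047 genes were higher and 850 lower at least 2-fold, against 1267 and 651. After it, 8 of the 83 further targets were at least 2-fold higher and 11 lower, against 11 and 7 without it, and MDM2 had a log2 ratio of -1.77.

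**Figure D4:**
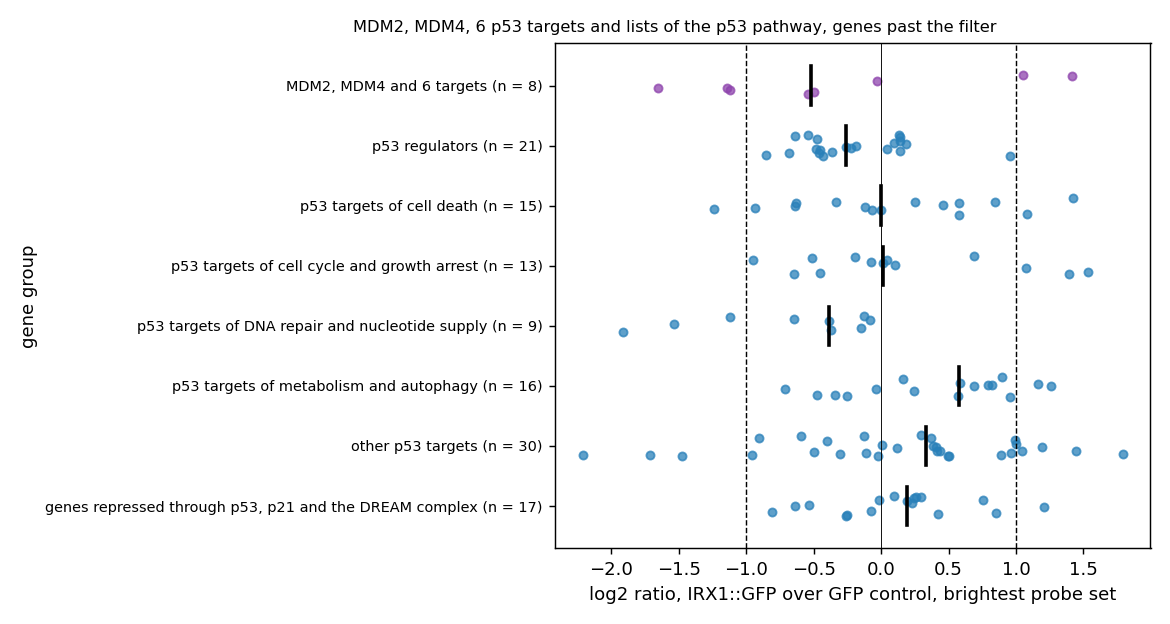
Log2 ratio (IRX1::GFP over GFP control, x axis) of the genes past the filter in 8 groups (y), each point 1 gene by its brightest probe set, with black bars at the medians and 2-fold marked by dashed lines, from 1 array of each condition. The median is -0.52 for the 8 genes of the top row, -0.39 for the targets of DNA repair and 0.57 for the targets of metabolism and autophagy.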

How the data were processed

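The deposited table held 1 column of signals per condition, linear intensity values that the authors had scaled. The mean without the lowest and highest 2% was 1000 in both. The submitters' processing notes name MAS5, without a version or target in the sources used here. The study's legend describes replicates, and whether a column is 1 array or a pool was not settled. Names came from the platform annotation, which gave 41097 of 54675 probe sets 1 gene symbol, 1801 several, left out here, and 11777 none. Symbols were brought up to date by gene identifier with RefSeq's gene table (GRCh38.p14), which held 41043 of them, giving 19775 genes. Some listed genes are not reported here.

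Members and lists were chosen with earlier results of these data known. Each probe set was given the log2 of its IRX1::GFP signal over its GFP control signal, and a gene stood for its probe set with the highest mean signal. Probe sets with a mean under the 50th percentile of all probe sets that are not array controls, a level of 183, were filtered out, and a 2-fold difference was called. No test was made between single arrays. Named were all members, of each list up to 6 genes past 2-fold by size, and the 5 genes nearest to MDM2 with all probe sets past the filter lower. Genes within 2-fold were named as examples after their values were seen. Alternatives were 3 scalings (median centring, quantile, loess with span 0.3), 3 filters (none, the 75th percentile, above background), low signals raised to the 50th percentile, all probe sets of a gene averaged, and only _at probe sets, which have no suffix for shared probes. On simulated signals, only the 2-fold call and the removal of a scale factor by the 3 scalings were tested. The filter, the choice of probe set, the bounds and the lists were not. Promoter windows were from RefSeq. Python 3.11.15, numpy 2.4.6, pandas 2.3.3, statsmodels 0.14.6 and matplotlib 3.10.9 were used.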

Additional observations from a re-analysis of the deposited data

How the results depend on the processing

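No paired analysis was possible because there was 1 column of signals for each condition, so that none could be left out and no test was made. Over 9 alternatives, MDM2 kept a log2 ratio between -1.77 and -1.34, ZMAT3 between -1.23 and -1.08, SESN1 between -1.25 and -1.11 and BAX between 1.30 and 1.55. BAX, TP53I3, SESN1 and FAS have no value with only _at probe sets. MDM2 was read there on 238733_at alone, at -1.34. Probe set 217542_at, also without a suffix and past the filter, had a log2 ratio of -0.16. Of the 8 genes, 2 were at least 2-fold higher as reported, but 1 after median centring and 0 with only _at probe sets. The probe sets of the 8 genes at least 2-fold lower numbered 10 to 15. There were 13 of 28 as reported, 15 of 31 without a filter and 10 with the 75th percentile filter. The filters also change how many probe sets are counted, so these counts are not shares. As reported, 6.02% of all probe sets with 1 symbol past the filter were lower. Without a filter, 3456 of 19775 genes passed 2-fold upward and 1983 downward. With the 75th percentile filter these were 513 and 415 of 7678 genes, against 1267 and 651 of 12193 as reported. With median centring, 1 target of cell death was higher and 2 lower, 1 target of cell cycle arrest was lower, 5 other targets were lower, and of all further targets 8 were higher and 11 lower. As the mean over probe sets, 0 targets of cell death were higher, 1 target of DNA repair was lower, 2 other targets were higher and 1 lower, and of all further targets 7 were higher and 3 lower. With only _at probe sets, 0 targets of cell death were lower and 0 DREAM genes higher. Higher targets of cell death numbered 1 with the 75th percentile filter and 1 with the floor, and higher targets of metabolism 1 with that filter. Quantile normalization and loess each put 1 p53 regulator past 2-fold higher. The median of the targets of cell death ranged from -0.11 to 0.17, of cell cycle targets from -0.19 to 0.02 and of the other targets from -0.01 to 0.33, so these medians have no settled sign. The causes were not tested.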

Other observations

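Several genes of the pathway lists had probe sets that disagreed, which a single value per gene does not show. FBXW7 had 4 probe sets past the filter, with log2 ratios between -2.76 and 1.11, of which 3 were at least 2-fold lower and 1 at least 2-fold higher. The 2 probe sets of REV3L read log2 ratios of -1.54 and 0.81. PGPEP1, chosen after its values were seen, was within 2-fold on its brightest probe set, at a log2 ratio of 0.89, while another reached 3.56. HIPK2, a kinase of p53 chosen in the same way, had 6 probe sets between -1.14 and 0.28.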
